A study of Mus musculus with 9 samples.

Results

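The genes described here are 35 that act in ribosomal RNA (rRNA) synthesis and in the processing of its precursor, out of 12125 genes in the deposited count table. They were taken from a list by symbol; 34 had a row under their own symbol and 1, Utp4, under the older symbol Cirh1a. The list names genes by function, and no cut on measured values was applied to it. It was chosen with earlier results of these data known. The question it addresses is whether genes that make rRNA differ between groups along with the reads assigned to Rn45s, the mouse 45S pre-rRNA.

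RNA was sequenced from TC2R cells, a line of mouse prostate adenocarcinoma derived from TRAMP-C2 cells (labelled C57/BL6) that carries activated H-ras and a further transgene, both delivered by lentivirus. All groups share these transgenes and the same transfection, with 1.5 µg of plasmid and 2 µL of Lipofectamine per well for 6 h and collection at 24 h. IL27_pepL cells received a plasmid for the cytokine IL-27 that ends in the peptide pepL. IL27_scr cells received IL-27 that ends in a control peptide, and plasmid control cells received a plasmid labelled pcDNA. Each group held 3 libraries. All libraries come from 1 line, and the labels do not state that replicates were separate cultures, so p-values measure the spread between these libraries, which may be technical.

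Eukaryotic rRNA is transcribed in the nucleolus by RNA polymerase I, which is brought to the rDNA promoter by the selectivity complex SL1, the architectural factor UBF and the initiation factor Rrn3. The long precursor is then cut and chemically modified by small nucleolar ribonucleoproteins (snoRNPs), built into small subunits by the small subunit processome and into large subunits by 60S assembly factors. Many of these genes are known targets of the transcription factor Myc, and the pathway is commonly raised in growing tumour cells.

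IL27_pepL libraries held 30013229 to 34164353 counts, IL27_scr libraries 30087806 to 35959983 and plasmid control libraries 27609884 to 35078027. On the principal component with the most variance (32.4%), IL27_pepL replicate 3 scored 23.3 and the other libraries -12.8 to 8.85. Of the epithelial markers described here, Krt8 and Cdh1 were low at up to 2.51 and 0.761 CPM (reads of the gene per 1e6 counts, with TMM-scaled library sizes) in any library. Krt18, Krt5, Epcam, Hoxb13 and Pbsn had no row in the table used here, so these markers carried little of the labelled epithelial origin. Of the mesenchymal markers, Vim was highest, at 3155 CPM in IL27_pepL, 2841 CPM in IL27_scr and 2801 CPM in plasmid control. In the same order, Fn1 had 471, 483 and 495 CPM, Col1a1 106, 96.5 and 108 CPM, and Cdh2 101, 98.4 and 101 CPM. Of the leukocyte markers, Cd68 reached at most 7.93 CPM and Csf1r at most 1.69 CPM, and Ptprc, Adgre1 and Lyz2 had no row.

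Promoter sequence is shown because Myc binds the E-box CACGTG. In the main edgeR fit, Myc itself passed the test only in IL27_pepL against IL27_scr (adjusted p = 0.0491). That call was lost in several alternatives, as described further on. Of the 35 genes, 30 matched the RefSeq promoter table (GRCm38.p6), which gives 250 bases before and 50 after each start site. The letters CACGTG, which read the same on both strands, were found in 7 of the 30 (23.3%): Rrn3, Mybbp1a, Utp4, Utp20, Wdr43, Pes1 and Nop2. They were found in 7.15% of all 32851 promoters in that table and in at least 1 promoter of 12% of the 9571 measured genes that matched it. The 250 bases before the start site follow for Rrn3 (chr16:13780449-13780698, plus strand), which holds 2 copies, for Nop2 (chr6:125131633-125131882, plus strand), which holds 1, and for Polr1a (chr6:71908803-71909052, plus strand), which holds none. Capitals mark the motif.
Rrn3: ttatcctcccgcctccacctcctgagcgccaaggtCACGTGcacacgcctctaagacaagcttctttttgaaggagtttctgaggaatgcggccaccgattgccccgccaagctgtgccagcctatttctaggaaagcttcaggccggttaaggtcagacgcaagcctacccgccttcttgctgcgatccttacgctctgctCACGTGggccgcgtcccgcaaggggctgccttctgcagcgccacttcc
Nop2: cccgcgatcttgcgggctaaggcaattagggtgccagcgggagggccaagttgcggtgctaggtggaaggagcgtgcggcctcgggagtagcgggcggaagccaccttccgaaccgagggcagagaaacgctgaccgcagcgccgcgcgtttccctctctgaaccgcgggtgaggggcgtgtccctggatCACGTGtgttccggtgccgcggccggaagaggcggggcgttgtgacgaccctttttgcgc
Polr1a: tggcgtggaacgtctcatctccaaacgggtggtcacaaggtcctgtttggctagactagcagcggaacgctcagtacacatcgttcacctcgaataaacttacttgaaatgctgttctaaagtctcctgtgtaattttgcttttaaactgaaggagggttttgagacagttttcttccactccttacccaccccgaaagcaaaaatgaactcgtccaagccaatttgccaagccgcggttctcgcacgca
A match is a description of these letters and not of a bound site. In IL27_pepL against IL27_scr the median log2 fold change was -0.014 over the 7 genes with the motif and -0.030 over the 23 without it.

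Rn45s reads were 0.268-fold as frequent in IL27_pepL and in IL27_scr as in plasmid control, whereas 0 of the 35 genes passed the test in any comparison. Rn45s took 0.286%, 0.333% and 0.474% of all counts in the 3 IL27_pepL libraries, 0.403%, 0.313% and 0.405% in IL27_scr, and 1.49%, 1.21% and 1.43% in plasmid control. Every IL-27 library lay below every control library, and the IL27_pepL and IL27_scr libraries overlapped. The log2 fold change was -1.90 ± 0.16 (SE) in IL27_pepL against plasmid control (edgeR quasi-likelihood test, Benjamini-Hochberg adjusted p = 7.49e-05) and -1.90 ± 0.16 in IL27_scr against the same control libraries (adjusted p = 1.01e-04). Between IL27_pepL and IL27_scr it was -0.0019 ± 0.16, with a 95% interval from -0.34 to 0.34 (adjusted p = 0.996). This row can collect reads of the precursor and of mature rRNA alike, and how RNA was selected before library preparation is not given in the sources used here.

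The mean log2 CPM over the 35 genes was 7.59 ± 0.0540 in IL27_pepL, 7.59 ± 0.0335 in IL27_scr and 7.58 ± 0.0379 in plasmid control (SD, n = 3 each). Together they took 1.27 ± 0.0247%, 1.31 ± 0.0213% and 1.29 ± 0.0416% of counts in the same groups. In such bulk samples, fewer cells of a type and less RNA per cell cannot be told apart.

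**Figure D1:**
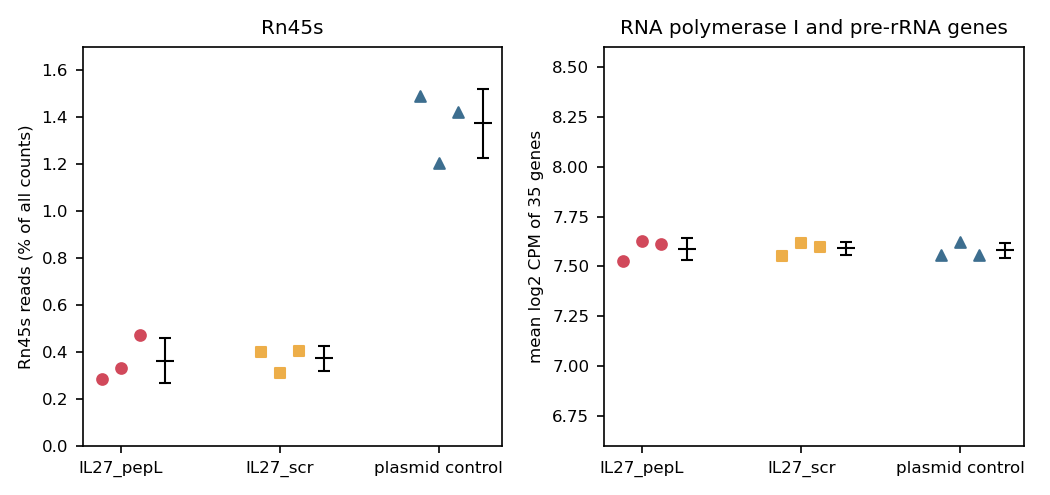
Rn45s reads as a percentage of all counts (left) and the mean log2 CPM of the 35 genes (right), with 1 point per library in IL27_pepL, IL27_scr and plasmid control; the bar beside each group is the mean with its SD over 3 libraries. The IL-27 libraries sit between 0.286% and 0.474% on the left, below the control libraries, while all 3 groups average from 7.58 to 7.59 on the right, whose axis does not start at 0.

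A gene is called here when its adjusted p is under 0.05 over all 12125 genes. In IL27_pepL against plasmid control 1.62% of all genes were called (197 genes) and 0 of the 35 were; 5 of the 35 had an unadjusted p under 0.05, against 23% of all genes. DESeq2's Wald test called 2 of the 35 (5.71%) in that comparison, Polr1d and Nop10, and 774 of the 12125 genes (6.38%). DESeq2 gave an adjusted p to only 10714 of the 12125 genes there, so the share among genes it tested is higher than 6.38%. In IL27_scr against plasmid control 0.0247% of all genes were called (3 genes), and 0 of the 35 had even an unadjusted p under 0.05, against 2.57% of all genes. With Rn45s and the IL-27 genes Il27 and Ebi3 removed, 0 genes were called in that comparison. For the average of IL27_pepL and IL27_scr against plasmid control 0.0577% of all genes were called (7 genes), and again 0 of the 35 were, with 3 at an unadjusted p under 0.05 against 7.78% of all genes. In IL27_pepL against IL27_scr 2.52% were called (306 genes) and 0 of the 35, with 5 at an unadjusted p under 0.05 against 23.3% of all genes. There DESeq2 called 1 (2.86%), Polr1d, and 811 of the 12125 genes (6.69%), of which 10949 had an adjusted p. DESeq2 called 0 of the 35 in IL27_scr against plasmid control, and limma-voom called 0 of them in each of these comparisons. The comparisons with plasmid control share its 3 libraries.

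The intervals of the fold changes give the differences that these libraries leave possible. In IL27_scr against plasmid control the log2 fold changes ran from -0.12 (Taf1c) to 0.08 (Wdr12), with a median of 0.012 against -0.0026 over all genes. The 95% intervals of the 35 genes together spanned -0.26, the lower bound of Taf1c (0.834-fold), to 0.24, the upper bound of Nhp2 (1.18-fold). In IL27_pepL against plasmid control the log2 fold changes ran from -0.14 (Taf1c) to 0.30 (Polr1d), with a median of -0.0070 against 0.0023 over all genes. The intervals there spanned -0.29 (Taf1c, 0.817-fold) to 0.51 (Nhp2, 1.43-fold). The Rn45s interval in the same comparison was -2.25 to -1.55, so no gene of the 35 had an interval that reached it. Log2 fold changes within 0.1 of 0 were found for 34 of the 35 genes (97.1%) in IL27_scr against plasmid control, against 79.5% of all genes, and for 27 (77.1%) in IL27_pepL against plasmid control, against 51%. Each of the 35 had at least 639 reads in every library, and the share over all genes includes genes with fewer reads.

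**Figure D2:**
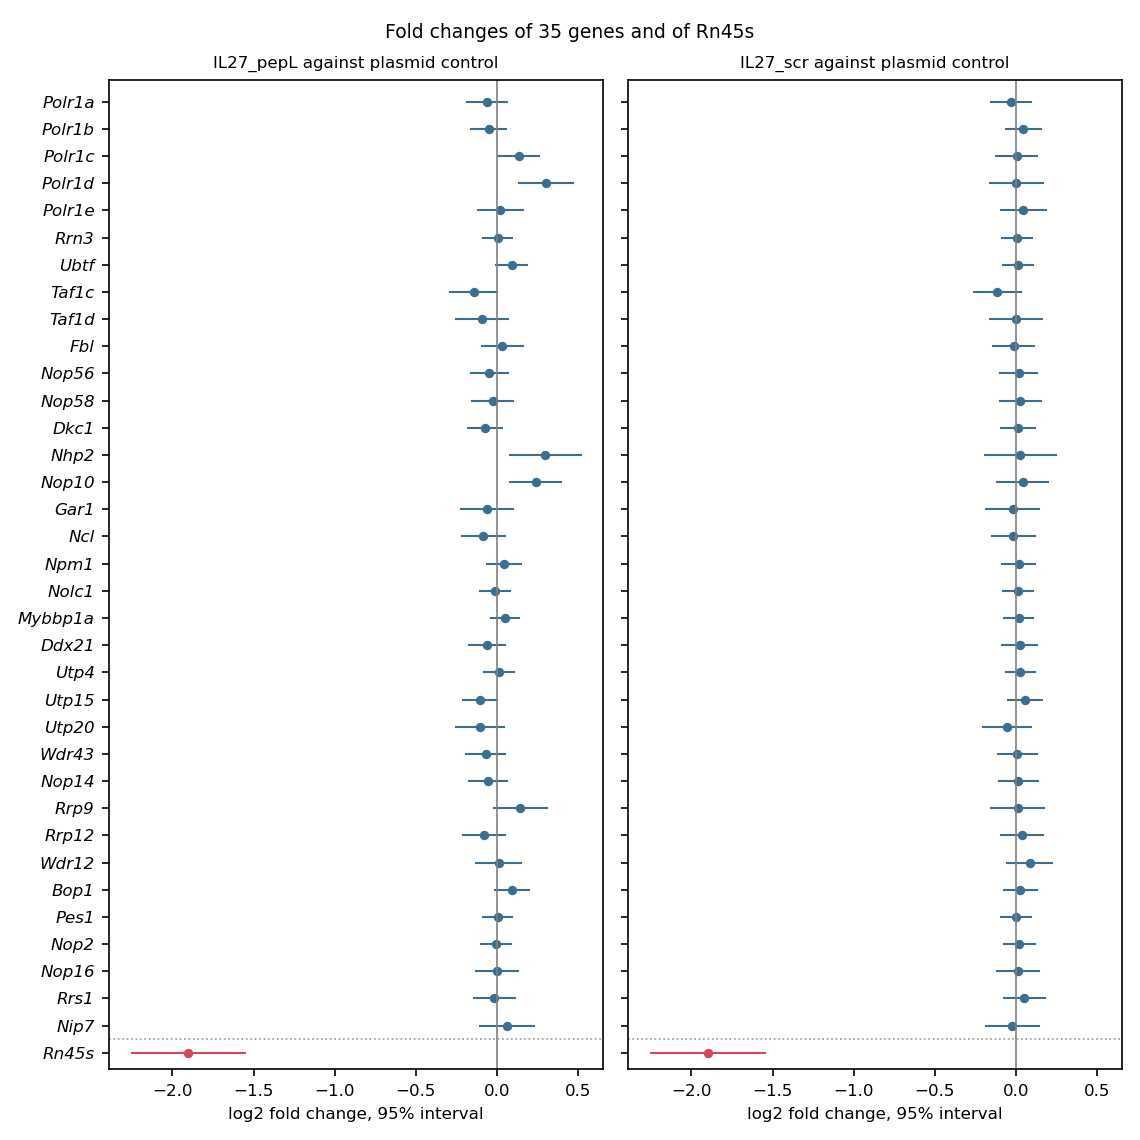
Log2 fold changes with 95% intervals of the 35 genes (blue) and of Rn45s (red), in IL27_pepL against plasmid control (left) and IL27_scr against plasmid control (right); each row is 1 gene and the vertical line marks 0. The Rn45s points sit at -1.90 in both panels, and the 35 genes lie between -0.14 and 0.30 on the left and between -0.12 and 0.08 on the right.

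Among the RNA polymerase I subunits, Polr1a is the largest and Polr1b the second largest, and together they form the catalytic centre. Polr1a had 174, 180.3 and 158 CPM in IL27_pepL, 182, 177 and 165 CPM in IL27_scr and 174, 187 and 175 CPM in plasmid control. The groups overlapped, with log2 fold changes of -0.06 ± 0.06 in IL27_pepL (adjusted p = 0.532) and -0.03 ± 0.06 in IL27_scr (adjusted p = 0.999) against plasmid control. Polr1b had 119, 125 and 120.5 CPM in IL27_pepL, 131, 132 and 126 CPM in IL27_scr and 127, 133 and 118 CPM in plasmid control. Its IL27_pepL libraries lay just below the IL27_scr libraries and overlapped plasmid control, and the difference from IL27_scr did not pass (-0.10 ± 0.05, adjusted p = 0.269).

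Polr1c and Polr1d encode subunits that RNA polymerase I shares with RNA polymerase III. Polr1d (GRCm38 chr5:147077050-147111597, plus strand) had the highest fold change of the 35 genes in both comparisons of IL27_pepL. It had 95.4, 106 and 119 CPM in IL27_pepL, 83.8, 86.3 and 90.4 CPM in IL27_scr and 93.3, 80.6 and 86.2 CPM in plasmid control. Every IL27_pepL library lay above every other library, with replicate 3 highest. The log2 fold change was 0.30 ± 0.08 against plasmid control (adjusted p = 0.0647) and 0.30 ± 0.08 against IL27_scr (adjusted p = 0.0561), so neither passed. Without IL27_pepL replicate 3 the value against plasmid control was 0.22 (adjusted p = 0.123), and without replicate 1 it was 0.38 (adjusted p = 0.00315). Without replicate 1, 6 of the 35 genes (17.1%) were called against plasmid control and 6 against IL27_scr, all higher. In either direction, 17.2% and 14.7% of all genes were called there, and the share called higher is not given here. Polr1c, outside the rule for naming members and picked after its values were seen, had 104, 114 and 122 CPM in IL27_pepL, 98.1, 109 and 104 CPM in IL27_scr and 105, 102 and 104 CPM in plasmid control (0.13 ± 0.06 against plasmid control, adjusted p = 0.201). Without IL27_pepL replicate 3 the Polr1c value was 0.083. Polr1e, a subunit that forms a heterodimer in the enzyme, ranged from 24.7 to 27.9 CPM over all 9 libraries.

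The initiation factors did not pass either. Rrn3, which makes polymerase I competent to start transcription, had 179.9, 179.9 and 177 CPM in IL27_pepL, 175, 184 and 179 CPM in IL27_scr and 175, 185 and 175 CPM in plasmid control. Its log2 fold change was 0.0023 ± 0.04 in IL27_pepL against plasmid control (adjusted p = 0.980), the smallest difference among the 4 initiation factors. Ubtf, which encodes UBF, had 249, 254 and 246 CPM in IL27_pepL, 232, 231 and 247 CPM in IL27_scr and 233, 231 and 240.1 CPM in plasmid control. The IL27_pepL libraries lay above the control libraries, by 0.09 ± 0.04 on the log2 scale (adjusted p = 0.240), and overlapped IL27_scr. Taf1c, an SL1 subunit, had the lowest fold change of the 35 against plasmid control in both IL-27 groups. It had 21.0, 22.0 and 22.8 CPM in IL27_pepL, 23.5, 22.5 and 21.0 CPM in IL27_scr and 24.3, 22.9 and 25.6 CPM in plasmid control. IL27_pepL lay just below plasmid control (-0.14 ± 0.07, adjusted p = 0.221) and IL27_scr overlapped it (-0.12 ± 0.07, adjusted p = 0.999). Taf1d, another SL1 subunit, ranged from 149 to 194 CPM over the 9 libraries, and its groups overlapped.

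The box C/D snoRNP proteins, which carry the methylating enzyme to pre-rRNA, varied little. Fbl, the 2'-O-methyltransferase fibrillarin, had 109, 123 and 109.6 CPM in IL27_pepL, 102, 114 and 114 CPM in IL27_scr and 111, 113 and 110.1 CPM in plasmid control (0.03 ± 0.06 in IL27_pepL against plasmid control, adjusted p = 0.788). Nop56, a core scaffold protein, had 555, 618 and 592 CPM in IL27_pepL, 597, 625 and 620.3 CPM in IL27_scr and 586, 645 and 593 CPM in plasmid control (-0.05 ± 0.05, adjusted p = 0.623). The groups overlapped for both genes, and for Nop58, the partner of Nop56.

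The box H/ACA snoRNP proteins, which carry the pseudouridine synthase, had fold changes in both directions. Dkc1, the synthase dyskerin, had 282, 291 and 259.9 CPM in IL27_pepL, 290.1, 299 and 292 CPM in IL27_scr and 285, 302 and 289 CPM in plasmid control (-0.07 ± 0.05, adjusted p = 0.373). Replicate 3 of IL27_pepL was the lowest library for Dkc1, and without it the value was -0.027. The next 3 genes were also picked outside that rule, with their values seen. Nhp2, a core subunit, had 106, 125 and 157 CPM in IL27_pepL, 103, 111 and 108 CPM in IL27_scr and 103, 105 and 108 CPM in plasmid control. Replicates 2 and 3 of IL27_pepL lay above all other libraries and replicate 1 did not, and the log2 fold change of 0.30 ± 0.10 against plasmid control did not pass (adjusted p = 0.117). Without IL27_pepL replicate 3 it was 0.14. Nop10, the smallest core subunit, had 66.4, 67.8 and 77.3 CPM in IL27_pepL, 56.8, 64.2 and 63.5 CPM in IL27_scr and 59.7, 55.8 and 64.0 CPM in plasmid control. Its IL27_pepL libraries lay above all 6 others, with 0.24 ± 0.07 against plasmid control (adjusted p = 0.0973). Gar1, the remaining core subunit, had 106, 115 and 105 CPM in IL27_pepL, 99.2, 117 and 118 CPM in IL27_scr and 103, 122 and 115 CPM in plasmid control, and its groups overlapped (-0.06 ± 0.08).

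The nucleolar chaperones and regulators held the most abundant of the 35 genes. Per kilobase of the longest annotated transcript, Npm1 was highest in plasmid control at 1649 CPM per kb, followed by Mybbp1a at 276 and Ncl at 265; Taf1c was lowest at 6.98. Npm1, the histone chaperone nucleophosmin, had 2731, 2804 and 2787 CPM in IL27_pepL, 2654, 2681 and 2835 CPM in IL27_scr and 2619, 2701 and 2760.45 CPM in plasmid control (0.04 ± 0.05, adjusted p = 0.623). Ncl, nucleolin, had 2121, 2159 and 1859 CPM in IL27_pepL, 2079, 2153 and 2201 CPM in IL27_scr and 2054, 2248 and 2209.85 CPM in plasmid control (-0.09 ± 0.06, adjusted p = 0.424). Replicate 3 of IL27_pepL was the lowest of the 9 libraries for Ncl, and without it the log2 fold change was -0.018. Mybbp1a, a Myb-binding nucleolar protein picked outside the rule as well, varied least between replicates of the 35, with a within-group coefficient of variation of 0.728%. It had 1267, 1276 and 1267 CPM in IL27_pepL, 1236, 1257 and 1233 CPM in IL27_scr and 1229, 1235 and 1222 CPM in plasmid control, so that the IL27_pepL libraries lay above all others by a small margin (0.05 ± 0.04 against plasmid control, adjusted p = 0.505). Reads of Npm1, which has processed pseudogenes, may have been split or dropped in counting.

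Of the small subunit processome genes, Utp15, a subunit of the early-binding UtpA complex, had the lowest fold change of the 35 in IL27_pepL against IL27_scr. It had 104, 107 and 101 CPM in IL27_pepL, 115, 121 and 113 CPM in IL27_scr and 109, 118 and 109 CPM in plasmid control. The IL27_pepL libraries lay below all others, with log2 fold changes of -0.16 ± 0.05 against IL27_scr (adjusted p = 0.0887) and -0.11 ± 0.05 against plasmid control (adjusted p = 0.213). The median of the 7 processome genes was -0.070 in IL27_pepL against plasmid control, with 2 above 0, and 0.013 in IL27_scr against plasmid control, with 6 above 0. Among the 60S assembly genes, Wdr12, which with Pes1 and Bop1 forms the PeBoW complex, had the highest fold change in IL27_scr against plasmid control. It had 73.7, 85.9 and 81.3 CPM in IL27_pepL, 82.9, 85.3 and 85.2 CPM in IL27_scr and 81.0, 85.0 and 73.2 CPM in plasmid control. The groups overlapped, and the difference was 0.08 ± 0.06 (adjusted p = 0.999). Over all 7 genes of this group the medians were 0.0029 in IL27_pepL and 0.020 in IL27_scr against plasmid control.

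**Figure D3:**
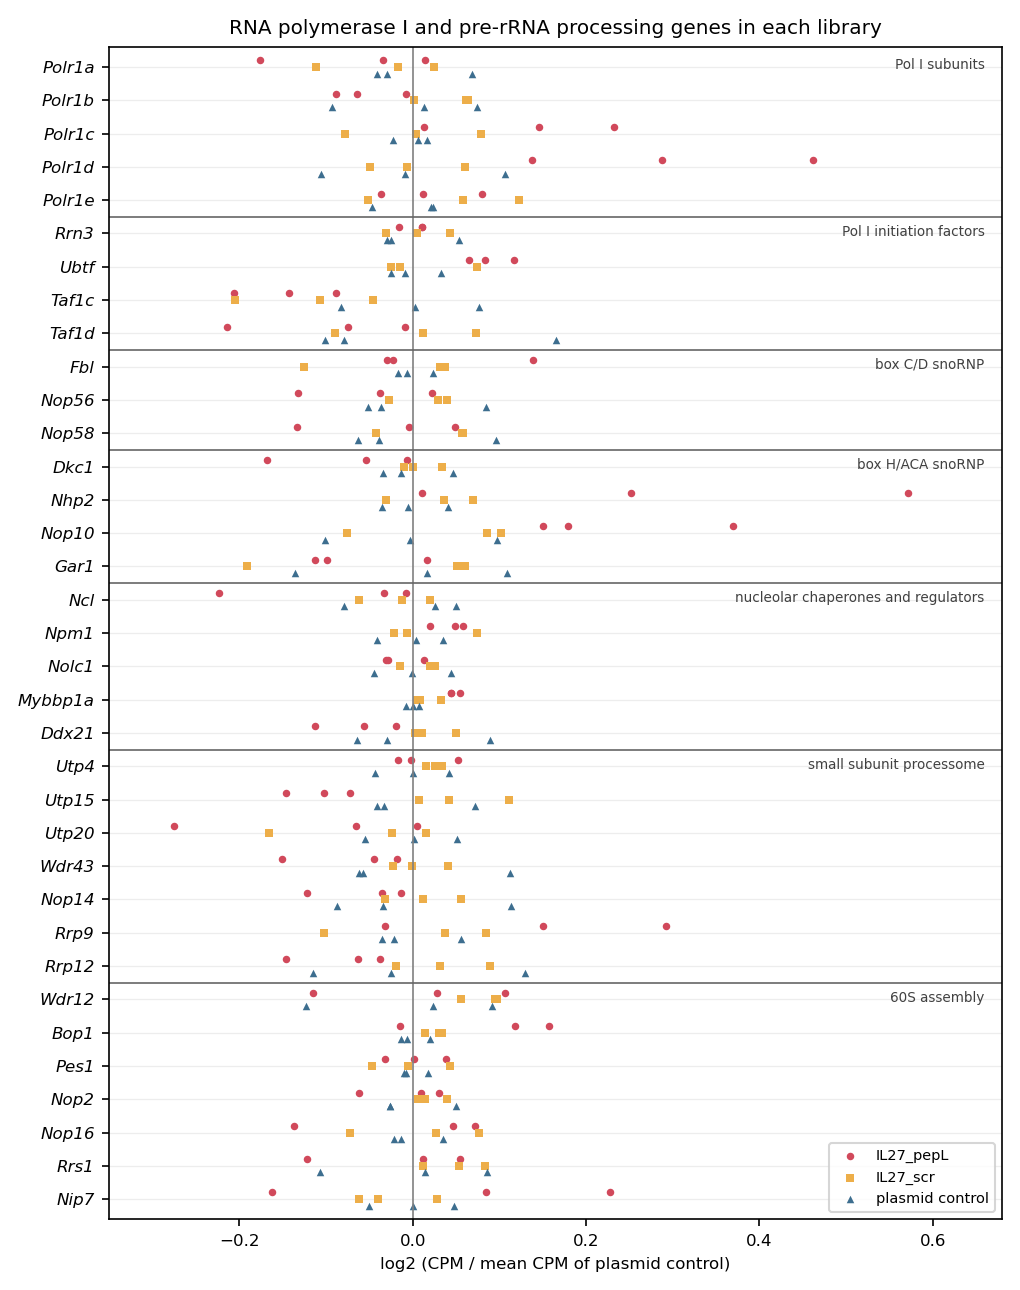
Level of each of the 35 genes in every library, as log2 of its CPM over the mean CPM of plasmid control, grouped by role; red circles are IL27_pepL, orange squares IL27_scr and blue triangles plasmid control. Most points lie close to 0 with the groups mixed, and the IL27_pepL points of Polr1d, Nhp2 and Nop10 spread to the right.

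Counted by libraries that do not overlap, IL27_pepL lay above plasmid control for 4 of the 35 genes (Polr1d, Ubtf, Nop10 and Mybbp1a), against 10.7% of all genes, and below it for 2 (Taf1c and Utp15), against 13.4% of all genes. IL27_pepL lay above IL27_scr for 3 genes (Polr1d, Nop10 and Mybbp1a), against 11.7% of all genes, and below it for 4 (Polr1b, Ddx21, Utp15 and Rrp12), against 14.3%. IL27_scr was separated from plasmid control for 0 of the 35 in either direction, against 4.75% of all genes higher and 5.25% lower. The 6 IL-27 libraries as 1 set were separated from plasmid control for 0 of the 35, against 1.16% higher and 1.51% lower. Direct comparison of the IL-27 groups gave log2 fold changes from -0.16 (Utp15) to 0.30 (Polr1d), with a median of -0.027 against 0.0036 over all genes. The 95% intervals in that comparison spanned -0.27 (Utp15) to 0.49 (Nhp2).

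The genes with the highest fold changes in IL27_pepL had short transcripts. In IL27_pepL against plasmid control the 5 genes whose longest annotated transcript was under 1500 bases (Polr1c, Polr1d, Nhp2, Nop10 and Gar1) had a median log2 fold change of 0.24, against 0.16 over the 1317 genes of that length. The 5 genes of 5000 bases or more had a median of -0.063, against -0.082 over 2798 genes. Spearman's rho between transcript length and fold change was -0.54 across the 35 genes and -0.45 across 12061 genes; genes share libraries and are not independent replicates. In IL27_scr against plasmid control it was -0.014 across the 35 genes and -0.15 across all. The mean log2 CPM of all genes with short transcripts was 3.84, 3.98 and 4.10 in IL27_pepL, 3.76, 3.87 and 3.86 in IL27_scr and 3.82, 3.79 and 3.84 in plasmid control, so that IL27_pepL replicate 3 was highest and replicate 1 within the range of the other groups. When transcript length and GC content were modelled as an offset in each library, the fold change against plasmid control was 0.18 for Polr1d (adjusted p = 0.0811), 0.13 for Nhp2, 0.11 for Nop10 and -0.0015 for Polr1c, and that of Gar1 was -0.21. Under the same offset Polr1d passed against IL27_scr (0.19, adjusted p = 0.0490), and several small values against plasmid control turned direction, among them those of Polr1a, Ncl, Nop58 and Npm1, to 0.03, 0.04, 0.12 and -0.012. None of those 4 passed the test under either scaling. The part of length in the differences of single genes was not tested beyond this offset.

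**Figure D4:**
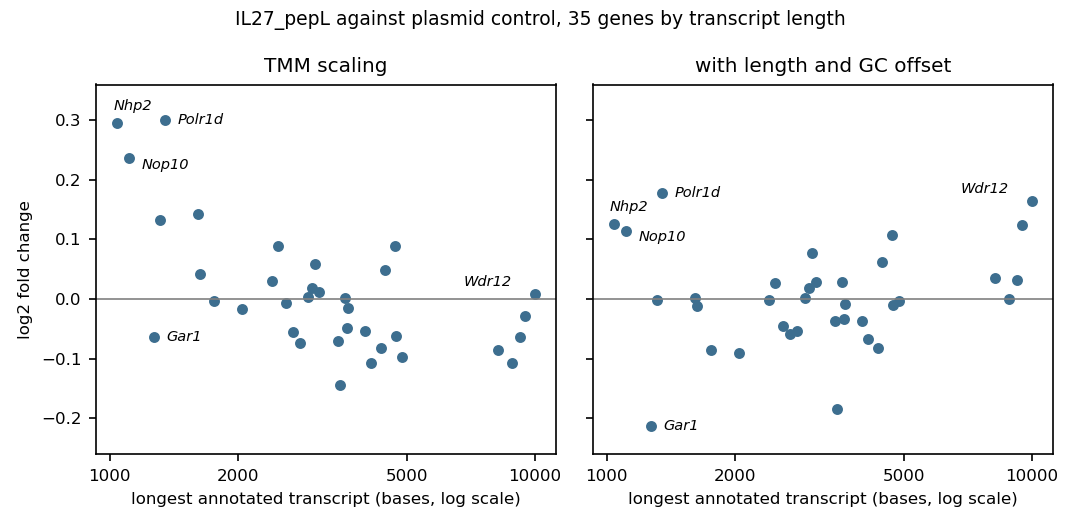
Log2 fold change in IL27_pepL against plasmid control of each of the 35 genes, against the length of its longest annotated transcript on a log axis, with TMM scaling (left) and with the length and GC offset (right). On the left the short transcripts Polr1d, Nhp2 and Nop10 lie at 0.24 to 0.30; on the right they lie at 0.11 to 0.18.

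Several features of these genes bear on how reads were counted. A group of 6 snoRNA hosts, Taf1d, Nop56, Nop58, Dkc1, Ncl and Wdr43, hold 24 annotated snoRNA genes within their bounds. The median log2 fold change of the hosts was -0.072 in IL27_pepL against plasmid control, against 0.0029 for the other 29 genes, and 0.0073 against 0.013 in IL27_scr. The longest annotated transcripts of the hosts had from 2804 (Dkc1) to 9507 bases (Nop58). With the length and GC offset, the hosts in IL27_pepL against plasmid control were at -0.0024 (Taf1d), -0.034 (Nop56), 0.12 (Nop58), -0.053 (Dkc1), 0.036 (Ncl) and -0.037 (Wdr43). Whether snoRNA genes or length account for the lower median was not tested. Exons of 13 of the 35 genes overlap a gene on the opposite strand, among them Polr1a, Taf1c, Nop56, Dkc1 and Nhp2, and since the strand setting is not given, reads of such partners cannot be told apart. The 35 genes lie on 17 chromosomes, with at most 5 on 1 of them.

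Beyond the 35 genes, 6 further lists covered 138 measured genes of the pathway, of which few passed. In IL27_scr against plasmid control 0 of the 138 were called, with a median log2 fold change of 0.0085. In IL27_pepL against plasmid control 2 were called (1.45%), Taf1a and Mdn1, both lower, with a median of -0.0068 over the lists. In IL27_pepL against IL27_scr 3 were called (2.17%), Taf1a, Sirt1 and Myc, all lower. Of all genes, 1.2% were called lower in IL27_pepL against plasmid control and 1.44% were called lower in IL27_pepL against IL27_scr.

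Taf1a, an SL1 subunit like Taf1c, had the lowest fold change of the listed polymerase I genes in both comparisons of IL27_pepL. It had 19.9, 20.8 and 20.8 CPM in IL27_pepL, 25.0, 30.5 and 26.1 CPM in IL27_scr and 26.8, 31.2 and 26.6 CPM in plasmid control. All IL27_pepL libraries lay below all others, with log2 fold changes of -0.46 ± 0.09 against plasmid control (adjusted p = 0.0199) and -0.41 ± 0.08 against IL27_scr (adjusted p = 0.0228). The call against plasmid control was lost without any 1 of the control libraries (adjusted p = 0.0528, 0.104 and 0.0599 without replicates 1, 2 and 3) or without IL27_pepL replicate 2 (0.0751). The call against IL27_scr was lost without IL27_scr replicate 2 (0.116), IL27_scr replicate 3 (0.0639) or IL27_pepL replicate 2 (0.0784). The other 11 genes of that list were not called. Mdn1, the ATPase midasin that releases assembly factors from pre-60S particles, was the 1 of 49 further 60S genes that passed, in IL27_pepL against plasmid control. It had 97.7, 109.6 and 93.3 CPM in IL27_pepL, 125, 124 and 110.4 CPM in IL27_scr and 127, 140.1 and 122 CPM in plasmid control. Its log2 fold change was -0.37 ± 0.07 against plasmid control (adjusted p = 0.0205), a call lost without any 1 of the control libraries (adjusted p = 0.0683, 0.124 and 0.0599 without replicates 1, 2 and 3) and in the fit of those 2 groups alone (0.0580). With the offset for length the value of this gene, whose longest transcript has 17970 bases, was -0.25 (adjusted p = 0.0435). Its value against IL27_scr, -0.26 ± 0.07, missed the threshold (adjusted p = 0.0697).

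Myc, the transcription factor that drives many ribosome biogenesis genes, had 195, 207 and 222 CPM in IL27_pepL, 242, 256 and 248 CPM in IL27_scr and 234, 272 and 237 CPM in plasmid control. It was lower in IL27_pepL than in IL27_scr (-0.26 ± 0.06, adjusted p = 0.0491), just past the threshold, and -0.25 ± 0.06 against plasmid control did not pass (adjusted p = 0.0619, and 0.0139 with the length and GC offset). Its call was lost with DESeq2 size factors (adjusted p = 0.0517), with a filter of 1 CPM in 3 libraries (0.0547), in the fit of those 2 groups alone (0.0562) and without any 1 of IL27_scr replicates 1, 2 and 3 (0.113, 0.168 and 0.126), plasmid control replicates 1 and 3 (0.0688 and 0.0733) or IL27_pepL replicate 2 (0.133). Sirt1, a deacetylase of the complex that silences rDNA, had 73.6, 76.0 and 69.4 CPM in IL27_pepL, 87.0, 89.2 and 87.3 CPM in IL27_scr and 79.6, 86.3 and 77.6 CPM in plasmid control. Its log2 fold change was -0.27 ± 0.05 against IL27_scr (adjusted p = 0.0191), a call lost without IL27_scr replicate 1, 2 or 3 (0.0750, 0.0997 and 0.0710), and its value against plasmid control was -0.15 ± 0.05 (adjusted p = 0.119).

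**Figure D5:**
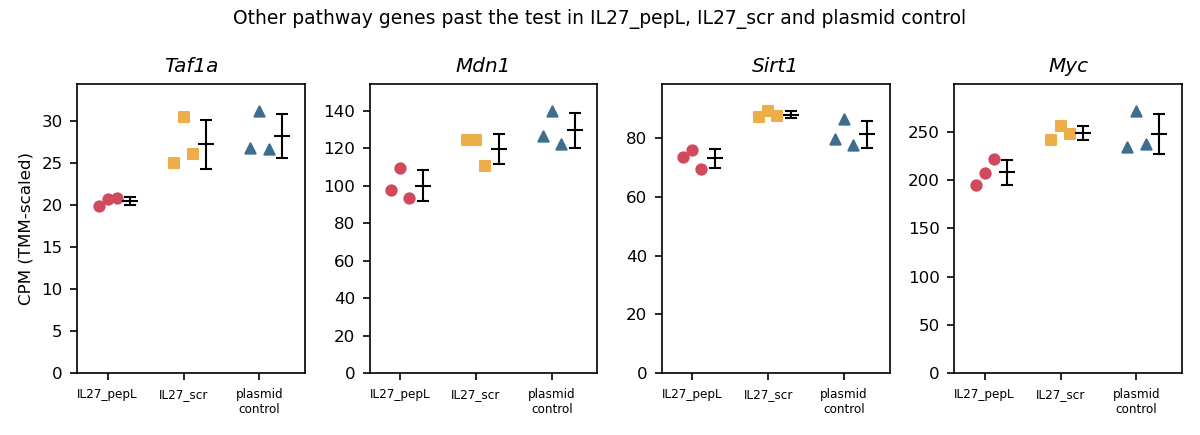
CPM of Taf1a, Mdn1, Sirt1 and Myc in every library of IL27_pepL, IL27_scr and plasmid control, with the mean and SD of 3 libraries beside each group. All 4 genes have their IL27_pepL points below the points of both other groups.

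The remaining 3 lists held no called gene. Of 38 further small subunit genes, Utp6 (-0.12 ± 0.04, adjusted p = 0.117) and Nat10 (-0.13 ± 0.05, adjusted p = 0.161) had the smallest p-values in IL27_pepL against plasmid control. Of 17 genes of the RNA exosome, which trims and degrades pre-rRNA, Exosc5 had 17.7, 19.4 and 21.4 CPM in IL27_pepL, 15.8, 17.4 and 15.2 CPM in IL27_scr and 15.9, 14.6 and 16.1 CPM in plasmid control (0.32 ± 0.08 against plasmid control, adjusted p = 0.0702). Its cofactor C1d had 0.29 ± 0.08 in the same comparison (adjusted p = 0.0760). Of 9 snoRNP assembly genes, Pih1d1, a subunit of the R2TP chaperone complex, had 0.25 ± 0.09 there (adjusted p = 0.124). Cdkn2a, whose Arf product restrains rRNA processing, had 0.32 ± 0.10 there in the list of 13 rDNA regulators (adjusted p = 0.0993). Its libraries had 179.9, 195 and 253 CPM in IL27_pepL, 157, 178 and 173 CPM in IL27_scr and 174, 158 and 171 CPM in plasmid control. Replicate 3 of IL27_pepL was thus highest for Cdkn2a, whose longest transcript has 895 bases. In IL27_pepL against IL27_scr, the 60S factor Nol8 had -0.26 ± 0.07 (adjusted p = 0.0630), and the small subunit factors Pwp2 and Tsr1 had -0.16 ± 0.05 each (adjusted p = 0.110 and 0.121). In IL27_scr against plasmid control the smallest adjusted p over all 6 lists was 0.999, with log2 fold changes from -0.12 (Chd4) to 0.11 (Sirt1).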

How the data were processed

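RNA was sequenced from 9 libraries of transfected TC2R cells, 3 per group. The authors deposited raw counts of reads for each gene, whole numbers with differing totals, with 1 column per library. The authors used FastQC, STAR (1.5.1 is printed beside it), featureCounts, Subread 1.6.1 and edgeR 3.22.5 with the mm10 build, per the submitters' processing notes, which give no roles. For the annotation, strand setting and RNA selection the value is not given in the sources used here.

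Counts were tested in R 4.3.3 with edgeR 4.0.16: TMM normalization, 1 quasi-likelihood fit of all 9 libraries with the group as its only term, and Benjamini-Hochberg adjustment over 12125 genes. The filter on low counts removed 0 genes, and the common biological coefficient of variation came to 5.76%. CPM values use TMM-scaled library sizes, SE is the log2 fold change divided by the root of F, and intervals are 95% t intervals on the same residual spread. Replicates of a group differed by more than sampling noise (chi-square per degree of freedom 3.04 to 32.8). Lengths and positions are from GENCODE M21 (GRCm38) and promoters from RefSeq.

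The genes and lists were chosen with earlier results of these data known. Genes given in every library were the members called or with the highest or lowest fold change in a pairwise comparison, and Polr1a, Polr1b, Rrn3, Ubtf, Taf1c, Fbl, Dkc1, Ncl, Npm1 and Nop56; Polr1c, Nhp2, Nop10, Gar1 and Mybbp1a were added after their values were seen; of each other list, called genes or those of smallest p. Alternatives were other size factors, filters, DESeq2 1.42.0, limma-voom (limma 3.58.1), the compared groups alone, a replicate block, removal of Rn45s, Il27 and Ebi3, a length and GC offset, and omission of each library. The procedure was tested on simulated counts. Some marker genes are not reported here.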

Additional observations from a re-analysis of the deposited data

How the results depend on the processing

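The fall of Rn45s in both IL-27 groups against plasmid control held its direction and its call under every alternative that kept its row, and no value that passed the test changed sign. Values near 0 did change sign: the median of the 35 genes in IL27_pepL against plasmid control, -0.0070, was 0.025 without IL27_pepL replicate 1, 0.019 without plasmid control replicate 2 and -0.028 without IL27_pepL replicate 2. Between IL27_pepL and IL27_scr the Rn45s value ran from -0.24 to 0.16 when each library was left out. The count of the 35 genes called was 0 in IL27_scr against plasmid control throughout. In IL27_pepL against plasmid control it was 2 with DESeq2's Wald test (Polr1d and Nop10), while DESeq2 called 774 of all genes. In IL27_pepL against IL27_scr it was 1 with DESeq2 (811 of all genes) and 1 with the length and GC offset (436 of all genes), both Polr1d. Leaving out each library gave 0 to 6 in both comparisons; the 6 came without IL27_pepL replicate 1, when Polr1c, Polr1d, Nhp2, Nop10 and Rrp9 were called in both, with Bop1 against plasmid control and Nip7 against IL27_scr. That is 17.1% of the 35, all higher, beside 17.2% (2084 genes) and 14.7% (1782 genes) of all genes called in either direction. The cause was not tested. The fit of the compared groups alone called 48 and 165 of all genes, against 197 and 306.

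Same-numbered libraries correlated in their deviations from the group means from -0.06 to 0.32 over 9 pairs, with 4 over 0.1. Libraries of different numbers correlated from -0.23 to 0.13 over 18 pairs, with 1 over 0.1. The main fit did not pair the samples by number, and whether equal numbers mark a shared batch was not tested. With a replicate block the count of the 35 genes called was 2 in IL27_pepL against plasmid control (Polr1d and Nop10) and 2 against IL27_scr (Polr1d higher, Utp15 lower), while 1019 and 1110 of all genes were called.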
